A study of Mus musculus with 2 samples.

Results

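The miR-200 family and miR-205 were not detected in LLC-derived exosomes on either array. The set comprised the guide strands mmu-miR-200a-3p, mmu-miR-200b-3p, mmu-miR-200c-3p, mmu-miR-141-3p and mmu-miR-429-3p together with mmu-miR-205-5p. These 6 members were chosen by name, and all 6 were on the array, which carried 1881 mouse miRNAs. LLC is a mouse Lewis lung carcinoma cell line, and exosomes are small vesicles that cells release into the medium. The 2 samples formed 1 group, exosomes from the supernatant of cultured LLC cells, whose RNA was labelled with Cy3 and hybridised to 1 Agilent array each. The labels do not say whether the 2 came from separate cultures. No treatment or genotype was compared, and no array of the LLC cells themselves was analysed here, so that a low content in exosomes cannot be told apart from a low content in the cells of origin.

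The miR-200 family is known as a keeper of the epithelial state. Its members repress the transcription factors ZEB1 and ZEB2, which in turn repress E-cadherin and the miR-200 genes themselves, so that the family and the ZEB factors hold each other in check. miR-205 is best known from stratified epithelia and glands, and it also represses ZEB1 and ZEB2. Loss of these miRNAs is a textbook feature of epithelial-mesenchymal transition in carcinoma.

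The mature sequences are shown because the seed, bases 2 to 8 from the 5′ end, splits the family into subgroups with different sets of targets. The sequences are from RefSeq, build GRCm38.p6, written 5′ to 3′ with the seed in capitals.

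mmu-miR-200b-3p: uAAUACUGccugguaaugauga
mmu-miR-200c-3p: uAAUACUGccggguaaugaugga
mmu-miR-429-3p: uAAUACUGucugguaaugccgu
mmu-miR-200a-3p: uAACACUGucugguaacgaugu
mmu-miR-141-3p: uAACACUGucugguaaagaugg
mmu-miR-205-5p: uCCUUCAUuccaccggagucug

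The seed AAUACUG was shared by miR-200b-3p, miR-200c-3p and miR-429-3p, and the seed AACACUG by miR-200a-3p and miR-141-3p. Of the 1608 miRNAs on the array with a RefSeq sequence, no other carried either seed, and miR-205-5p was alone with CCUUCAU. A match over bases 2 to 7 alone also found no further miRNA for any of the 3 seeds. Within the family, the closest pairs differed at 2 of 22 aligned positions, which were miR-200b-3p with miR-200c-3p and miR-200a-3p with miR-141-3p. In contrast, miR-205-5p was the same as miR-200a-3p at only 5 of 22 positions. Binding of a probe for 1 member by another member was not tested.

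The genes lie in 3 places of GRCm38.p6, all on the minus strand. On chromosome 4, the hairpins of miR-429, miR-200a and miR-200b lie within 1846 bases of each other. The mature miR-429-3p is at chr4:156053916-156053937, miR-200a-3p at chr4:156054911-156054932 and miR-200b-3p at chr4:156055685-156055706. All 3 fall inside the annotated long non-coding RNA gene *Gm13648*. On chromosome 6, the hairpins of miR-141 and miR-200c lie within 477 bases, with miR-141-3p at chr6:124717917-124717938 and miR-200c-3p at chr6:124718324-124718346, and no other annotated gene overlaps them. miR-205-5p is at chr1:193507503-193507524, inside its long non-coding host gene *Mir205hg*. Exons and introns were not analysed here.

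Feature Extraction, the scanner software, called 0 of the 6 members detected in replicate 1 and 0 of 6 in replicate 2. It called 13.5% of the 1881 miRNAs in replicate 1, 11.9% in replicate 2 and 11.5% on both arrays, so at these rates fewer than 1 of any 6 miRNAs is called on average. The count of 0 was therefore near the background and is not a result particular to these 6. The software reported each of the 6 as its placeholder for an undetected miRNA, a total of 0.1.

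To see how far below detection the members lay, their spots were examined one by one. Each member had 2 probes of 15 spots, and spots that the software marked as outliers were left out, 2 of miR-205-5p in replicate 1 and 1 of miR-200c-3p in replicate 2. The values below are intensities after subtraction of the background by the software, so that 0 means no signal over background. Spots of a probe are technical repeats on 1 array.

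In the subgroup of miR-200b-3p, miR-200c-3p and miR-429-3p, the spots of miR-200b-3p ranged from -7.92 to 5.11 with a median of -1.08 in replicate 1, while those in replicate 2 ran from -6.67 to 4.31 with a median of -1.43. miR-200c-3p had spots from -7.16 to 2.78 with a median of -2.06 in replicate 1, and from -5.50 to 3.14 with a median of -1.63 in replicate 2. Both thus lay mostly below 0 on each array, with 11 of 30 spots above 0 for miR-200b-3p on either array, and 7 of 30 and 7 of 29 for miR-200c-3p. The spots of miR-429-3p ranged from -2.60 to 7.83 with a median of 0.31 in replicate 1, and from -5.27 to 6.24 with a median of 0.49 in replicate 2. miR-429-3p was the only member with a median above 0 on both arrays, and 17 and 20 of its 30 spots were above 0.

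In the subgroup of miR-200a-3p and miR-141-3p, the spots of miR-200a-3p ranged from -7.60 to 6.18 with a median of -0.28 in replicate 1, and from -4.40 to 3.12 with a median of -0.38 in replicate 2. Those of miR-141-3p ranged from -6.52 to 3.76 with a median of -0.79 in replicate 1, and from -5.21 to 6.02 with a median of -0.07 in replicate 2. Spots of both scattered to either side of 0. For miR-205-5p, outside the family, the range was -4.15 to 3.71 with a median of -0.93 in replicate 1, and -4.20 to 4.70 with a median of -0.10 in replicate 2. For each of the 6 members, the SD of its spots on either array was larger than the difference between its means on the arrays.

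**Figure D1:**
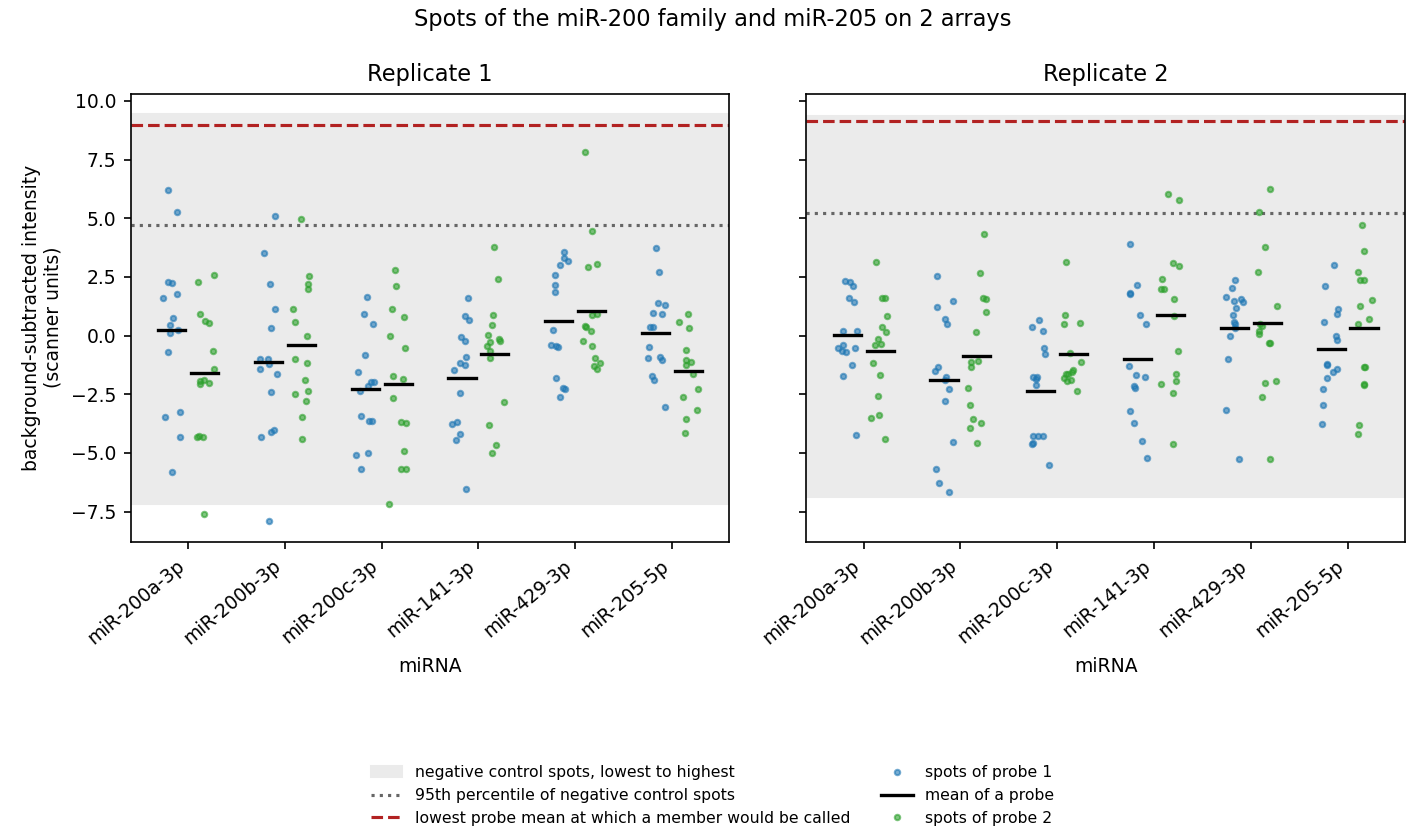
Background-subtracted intensity (scanner units) of every spot of the 6 miRNAs in replicates 1 and 2, with points coloured by probe and black bars for probe means. The grey band spans the negative control spots, the dotted line is their 95th percentile, and the dashed line is the lowest probe mean at which the software would have called a member (8.98 in replicate 1 and 9.15 in replicate 2); every probe mean lies far below it.

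The negative controls, spots whose sequences are made to match no miRNA, were taken as the reference for background. There were 986 such spots in replicate 1 and 995 in replicate 2, with a median intensity of 0.619 and 0.739. Spots of miRNAs detected on neither array had lower medians, 0.252 and 0.0517. The 95th percentile of the negative control spots was 4.73 and 5.23. No member had a probe mean above that percentile on both arrays, whereas 18.6% of all miRNAs did. No spot of any member was brighter than the brightest negative control spot, at 9.45 in replicate 1 and 9.35 in replicate 2. The members had only 178 and 179 spots, so a count of 0 is likely even where member and control spots do not differ. The share of other miRNAs with such a spot was not counted. The negative controls comprised 7 probes with mean intensities of 0.340 to 1.25 in replicate 1, against 0.368 to 1.90 in replicate 2. Of the 12 member probes, 10 had a mean below the lowest of these 7 on each array, and 0 had a mean above the highest. Among the 3818 probes of miRNAs detected on neither array, 55.5% lay below the lowest control probe in replicate 1 and 60.3% in replicate 2. A signal under the controls was thus common among undetected miRNAs. Of the same 3818 probes, 27.2% had a mean above the highest control probe in replicate 1 and 17.8% in replicate 2. The 0 of 12 member probes was not tested against these shares.

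Spot by spot, 0 of 178 member spots in replicate 1 and 0 of 179 in replicate 2 were well above background. The share was 7.53% and 6.13% for spots of all miRNAs. It was 0.0189% and 0.00838% for spots of miRNAs detected on neither array, and 0% for negative control spots in both replicates. The 0 of the members was thus near the share of undetected miRNAs. The weaker flag, positive and significant against the background, was set for 7.87% and 6.70% of member spots. The same flag was set for 17.5% of negative control spots in replicate 1 and 20.8% in replicate 2, and for 20.9% and 18.6% of the spots of miRNAs detected on neither array. In replicate 1 miR-429-3p had the most, 7 of 30 spots, and it had 3 of 30 in replicate 2. In replicate 2 miR-141-3p had the most, 4 of 30 spots, after 1 of 30 in replicate 1. miR-200c-3p had 0 of 30 and 1 of 29. When a miRNA was called if 50% or more of a probe's spots carried a flag, 0 of the 6 members passed with either flag on both arrays. Over the array, 25.4% of miRNAs passed with the weaker flag and 7.07% with well above background. With 1 group and spots that are no independent samples, these shares were not tested.

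The distance to detection was read from the software's own rule. A probe is called when its total signal exceeds 3 times its error, and this rule returned the call of all 1881 miRNAs on both arrays. For the member probes, the mean spot intensity needed was 8.98 to 9.01 in replicate 1 and 9.15 to 9.19 in replicate 2. The member closest to it in replicate 1 was miR-429-3p, whose brighter probe had a mean of 1.04, or 11.5% of the intensity needed, and 0.53 or 5.78% in replicate 2. In replicate 2 it was miR-141-3p, with 0.887 or 9.65% for its brighter probe, which had -0.77 in replicate 1. By the brighter probe, the farthest in replicate 1 was miR-200c-3p, with a mean of -2.05, and in replicate 2 it was miR-200b-3p, with -0.88 against -0.78 for miR-200c-3p. Relative to the 75th percentile of the probes detected on both arrays, the needed intensity stood at -2.48 on the log2 scale in replicate 1 and -2.13 in replicate 2. No member had a level above these limits, and no fold change is given for signals below background.

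Averaged over both arrays, the mean intensities in descending order were 0.628 ± 0.298 for miR-429-3p, -0.411 ± 0.399 for miR-205-5p, -0.502 ± 0.244 for miR-200a-3p, -0.666 ± 0.876 for miR-141-3p, -1.07 ± 0.44 for miR-200b-3p and -1.86 ± 0.43 for miR-200c-3p (SD, n = 2 arrays). From miR-205-5p down to miR-200b-3p, each neighbour differed from the next by less than the larger of their SDs, whereas the steps from miR-429-3p to miR-205-5p and from miR-200b-3p to miR-200c-3p were larger than both SDs. miR-429-3p was highest and miR-200c-3p lowest on each array. This order is of signals at background from different probes, and it does not rank amounts of miRNA. By position, 65.3% of the 1621 miRNAs detected on neither array had a lower mean than miR-429-3p in replicate 1 and 61.4% in replicate 2. For miR-200c-3p the shares were 2.78% and 14.1%, and for miR-141-3p 14.7% and 51.0%, so the position of a member among undetected miRNAs moved widely between the arrays. miR-200a-3p had 30.2% and 44.4% of them below it, miR-205-5p 29.5% and 49.0%, and miR-200b-3p 27.5% and 18.6%.

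The opposite arms of the same hairpins, which are usually degraded when the guide strand is kept, were examined in the same way. All 6 were on the array, and 0 were detected in either replicate, against 13.5% and 11.9% of all miRNAs in replicates 1 and 2. As for the members, this count of 0 was near the background. Mean intensities of miR-200a-5p, miR-200b-5p, miR-200c-5p, miR-141-5p, miR-429-5p and miR-205-3p lay between -2.20 and 0.75 in replicate 1, and between -2.04 and 0.18 in replicate 2. miR-205-3p was the lowest in replicate 1 and miR-200b-5p in replicate 2. For miR-141-5p, the highest probe reached 24.3% of the intensity needed for a call in replicate 1 and 19.9% in replicate 2, the highest share of any probe of these 6 hairpins on each array. No strand of these hairpins was thus called detected.

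For context, other miRNAs were read by the same call. Of 11 further miRNAs known from epithelia, namely miR-203-3p, the miR-183, miR-182 and miR-96 cluster, miR-375-3p, miR-192-5p, miR-194-5p, miR-215-5p and the multiciliated-cell miRNAs miR-34b-5p, miR-34c-5p and miR-449a-5p, 0 were detected on both arrays. Over all miRNAs the share was 11.5%, so a count of 0 of 11 was near the background. miR-34c-5p was detected in replicate 1 only, with a mean intensity of 5.27 against 2.99 in replicate 2. By the weaker flag, miR-34c-5p and miR-34b-5p, the latter at 5.00 and 3.49, passed on both arrays, as did 25.4% of all miRNAs. The miR-199 and miR-214 set is known from mesenchymal cells, and 4 of its 5 miRNAs on the array were detected in both replicates. Their mean intensities were 16.8 and 16.4 for miR-199a-3p, 11.8 and 9.19 for miR-199b-5p, 14.5 and 12.7 for miR-214-3p, and 11.7 and 10.4 for miR-214-5p in replicates 1 and 2. The fifth, miR-199a-5p, had 2.81 and 2.51 and was not detected. Of 11 let-7 and miR-98 guide strands, which are present in most differentiated tissues, 9 were detected on both arrays. However, only miR-23a-3p of 5 miRNAs of the miR-23/24/27 clusters was. miR-24-3p, with 5.88 and 4.57, was not, so that a call of not detected was also given to miRNAs that many cell types express. Unlike the members, miR-24-3p passed the weaker flag and had a probe above the negative controls on both arrays. Of the 6 members, 0 passed either. miR-23b-3p and miR-27a-3p passed the weaker flag only, and miR-27b-3p, with 0.529 and 0.0725, passed neither. The lists were chosen with earlier results of these data known, so a contrast between them is not independent of these data. They were described by counts, and no difference between them was tested.

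**Figure D2:**
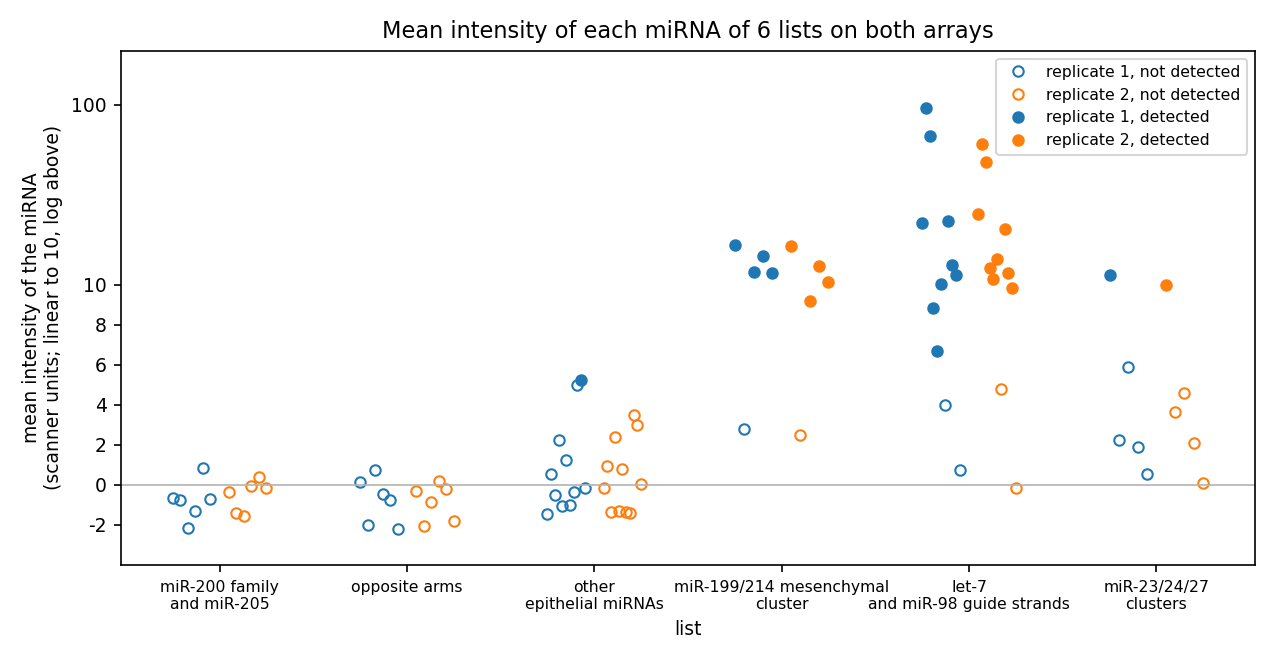
Mean intensity (scanner units, linear up to 10 and logarithmic above) of each miRNA of 6 lists in replicate 1 (blue) and replicate 2 (orange), with filled points for miRNAs called detected. All points of the miR-200 family and miR-205 are open and lie between -2.17 and 0.84, while 4 of 5 of the miR-199 and miR-214 set are filled on both arrays. The lists were chosen with earlier results of these data known. Intensities of different miRNAs come from different probes and are not amounts.

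The 5 members of the miR-200 family were below the array's median in their content of G and C, which the choice by name did not use, and miR-205-5p was above it. The content was 36.4% for miR-200b-3p, 40.9% for each of miR-200a-3p, miR-141-3p and miR-429-3p, 43.5% for miR-200c-3p and 54.5% for miR-205-5p. The median was 52.2% over the 1608 miRNAs with a sequence and 59.1% over the 182 of them detected on both arrays. The share detected was 6.80%, 21 of 309, for miRNAs with over 35% to 45% of G and C, where the 5 members of the family lie, and 8.25% for those with over 45% to 55%, where miR-205-5p lies. It was 23.9% for miRNAs with over 65%. Of the 21 detected miRNAs with the composition of the family, 5 were let-7 guide strands. The part of base composition in the calls of the members was not tested.

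**Figure D3:**
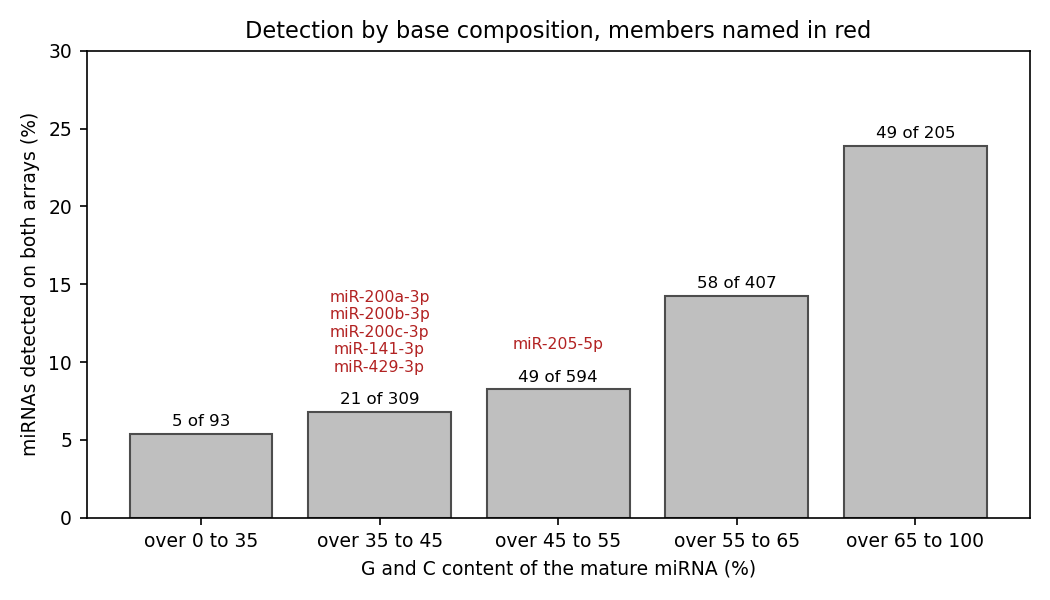
Share of miRNAs detected on both arrays (%) by the G and C content of the mature miRNA (%), with the number detected of the number on the array above each bar and the 6 members named in red over their bar. The share rises from 5.38% in the lowest class to 23.9% in the highest, and the members lie in the classes with 6.80% and 8.25%.

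The authors' deposited log2 table had all 6 members and all 6 opposite arms at its lowest value, -3.32, in both columns. In each column 312 of the 1881 miRNAs lay above that value. Feature Extraction called fewer, 253 in replicate 1 and 223 in replicate 2, so some miRNAs above it were not called by the software. The value -3.32 is the log2 of 0.1, the placeholder total of the members in the scanner files. For the members the table thus gave the same reading from the same arrays and is no separate evidence.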

How the data were processed

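RNA of LLC-derived exosomes was hybridised to an Agilent mouse miRNA array (1 colour, Cy3) for each of 2 samples. The authors deposited spot intensities from Feature Extraction 10.7.1.1 per the file headers (the labels name version 9.1), background-subtracted and not normalized between arrays, with totals and flags. The other flags were deposited beside the intensity. The labels describe a blood RNA kit and labelled cRNA, whereas the paper names the maker's miRNA protocol, and which was used was not settled. The authors also deposited a log2 table, whose making, scale and centring are not given in the sources used here. The median of each column was -3.32.

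Each array held 56430 miRNA spots of 4415 probes. Outlier spots were left out, 1178 in replicate 1 and 1134 in replicate 2, and 0 spots were saturated. The mean over spots gave a probe's value, and the mean over probes a miRNA's. The number of arrays limits the precision, and with 1 group no test was made. The members and lists were chosen with earlier results of these data known. Named miRNAs are the members, their opposite arms, and the listed miRNAs. Since 2 arrays give no pattern, none was named for a like pattern. miR-199b-3p, also listed, was not on the array under that name and so was not analysed here. Sequences of 1608 miRNAs, including all 6 members, were matched by name to RefSeq. The script was tested on simulated data. Python 3.11.15, numpy 2.4.6, pandas 2.3.3, R 4.3.3 and limma 3.58.1 were used.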

Additional observations from a re-analysis of the deposited data

How the results depend on the processing

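The number of members detected on both arrays was 0 with each of the 5 other settings tried, which were positive and significant spots, spots well above background, the deposited log2 table and each replicate left out. Of these, leaving out a replicate repeats the counts per array given above, and the deposited table holds the log2 of the placeholder for the members. The number of members above the negative controls was 0 with the brightest control spot, the median of spots, outlier spots kept, the signal before background subtraction and each replicate left out. The opposite arms stayed at 0 with the 5 other settings for detection, and the other settings for the negative controls were not run for them. The share of member spots was 0% with well above background and 7.28% with positive and significant, a weaker flag by construction. The number of other epithelial miRNAs was 2 with positive and significant spots and 2 in the deposited table, and from 0 to 1 with a replicate left out, 1 without replicate 2 because of miR-34c-5p. The miR-199 and miR-214 set fell to 2 with well above background, and the miR-23/24/27 clusters rose to 4 with positive and significant spots. No level relative to the 75th percentile was given for a member, so the scaling over all probes, the brightest probe and the deposited table gave no value for it. With normexp background correction and an offset of 50, member means were 54.4 to 56.5 in replicate 1 and 54.8 to 56.3 in replicate 2, against medians of 56.7 and 57.0 for the negative controls. Of 30 other values of the mean intensities, from settings added after the data were seen, 3 moved by over 1 SD, all with the brightest probe, and the values lay between -2.17 and 0.84. With 2 arrays, leaving 1 out cannot move a mean by over 1 SD, so those values do not measure stability. Keeping outlier spots could not move the members that had none. No paired analysis was possible because all samples belong to 1 group. Signal over background limits the reading, since a member probe needed a mean of at least 8.98 intensity units in replicate 1 and 9.15 in replicate 2 to be called.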
